A study of Mus musculus with 4 samples.

Results

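The smooth muscle contractile program was followed here through 10 genes, Acta2, Myh11, Tagln, Cnn1, Lmod1, Myocd, Myl9, Tpm2, Pln and Des, of the 53703 features in the deposited matrices. They were chosen by symbol, and their levels were read in mural, endothelial and stromal cells of mouse long bone. The series holds 4 droplet-based scRNA-seq libraries, 2 from Lats2iECKO mutants and 2 from controls, all from 12-week-old mice. In the mutants, loxP-flanked Lats2, a kinase of the Hippo pathway, was inactivated in endothelial cells (ECs) by Cdh5(PAC)-CreERT2, a tamoxifen-dependent Cre driven by an endothelial promoter. Controls were littermates without Cre that received the same tamoxifen. Both genotypes contributed metaphyses of femur and tibia, which were digested and depleted of lineage-positive, CD45+ and CD117+ cells. The deletion was thus directed at ECs and not at mural cells. The labels do not say whether a library held 1 or several animals, and p-values over libraries measure only the spread between these samples.

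Smooth muscle cells (SMCs) contract when myosin pulls on actin filaments. Their identity genes are switched on by serum response factor (SRF) together with its coactivator myocardin, which acts at short DNA elements called CArG boxes. Mural cells of bone comprise the SMCs that sheath arteries and arterioles, which are rich in contractile proteins, and pericytes of smaller vessels, which carry few of them. Acta2, which encodes αSMA, and Tagln, which encodes the actin-binding protein SM22α, are also induced in myofibroblasts, whereas Myh11, the smooth muscle myosin heavy chain, is more restricted to SMCs.

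Among the 10 genes, Acta2 (actin) and Tpm2 (tropomyosin) build the thin filament, Lmod1 (leiomodin) nucleates it, and Tagln and Cnn1 (calponin) bind it. Myh11 and Myl9 (regulatory light chain) belong to myosin, Des (desmin) forms intermediate filaments, Pln (phospholamban) restrains the calcium pump of the sarcoplasmic reticulum, and Myocd encodes myocardin itself. On GRCm39, Acta2 spans chr19:34217737-34232990 on the minus strand, Myh11 chr16:14012399-14109236 on the minus strand and Tagln chr9:45840909-45847404 on the minus strand. Cnn1 spans chr9:22010512-22020926 on the plus strand, Lmod1 chr1:135252509-135295907 on the plus strand and Myocd chr11:65067387-65160828 on the minus strand. Myl9 spans chr2:156617084-156623579 on the plus strand, Tpm2 chr4:43514697-43524949 on the minus strand, Pln chr10:53199622-53223512 on the plus strand and Des chr1:75320511-75345223 on the plus strand. Only Myocd overlaps an annotated gene on its own strand, Gm12295.

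Because SRF acts at CArG boxes, promoter sequences from RefSeq (GRCm38.p6; 250 bases before to 50 after the gene start) were searched on both strands for the CArG box, exact or with 1 departure. Entries existed for 7 of the 10 genes, each matched to GRCm39 at 1 place, and not for Myh11, Tagln and Myocd. The gene start of these windows is the RefSeq start, which lies inside the span given above for each gene. It is chr19:34232773 for Acta2, chr9:22010549 for Cnn1, chr1:135252551 for Lmod1 and chr2:156617384 for Myl9. For Tpm2 it is chr4:43523554, for Pln chr10:53213782 and for Des chr1:75336936. A box before that start can thus lie within the span. The Myl9 window held an exact box, as did 1.63% of the 32851 promoters searched. Exact boxes or boxes with 1 departure stood in the windows of 3 members, Acta2, Lmod1 and Myl9, and in 21.1% of all promoters. The boxes of these 3 genes are shown with 10 bases on either side, 5′ to 3′ on the strand of the gene, with the box in capitals.
Acta2 box with 1 departure, chr19:34232838-34232867, minus strand, starting 84 bases before the gene start: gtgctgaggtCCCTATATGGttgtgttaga
Acta2 box with 1 departure, chr19:34232788-34232817, minus strand, 34 bases before: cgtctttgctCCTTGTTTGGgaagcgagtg
Lmod1 box with 1 departure, chr1:135252352-135252381, plus strand, 189 bases before: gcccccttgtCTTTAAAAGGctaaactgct
Lmod1 box with 1 departure, chr1:135252377-135252406, plus strand, 164 bases before: ctgctctgtaCTAAATTTGGtcacgcagcg
Myl9 exact box, chr2:156617213-156617242, plus strand, 161 bases before: caagcagaggCCTAATAAGGccgggctggc
Myl9 box with 1 departure, chr2:156617275-156617304, plus strand, 99 bases before: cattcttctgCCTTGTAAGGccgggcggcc
A match of letters is a description of the window and not evidence of binding, and Cnn1, Tpm2, Pln and Des held none of these letters in theirs.

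The libraries summed to between 69636600 and 85899079 UMIs, and 4890 and 5589 barcodes of the mutants and 6430 and 6395 of the controls were kept, with a median of 7391.5 to 8063.5 UMIs. Pairs of libraries shared 7 to 22 barcodes, against 5.67 to 8.56 if unrelated. CreERT2 stood at 53.6 and 50.8 CPM in mutant ECs and at 0.695 and 0.944 CPM in control ECs (CPM, counts of a gene scaled to 1 common depth per gate and library). Lats2 stood at 91.9 and 97.5 CPM in mutant ECs and at 134 and 125 CPM in control ECs, a log2 fold change (log2FC) of −0.39 (SE 0.0778; edgeR quasi-likelihood test, Benjamini-Hochberg adjusted p = 3.55e-04). The marker lists left 1025 and 1139 mutant barcodes and 337 and 373 control barcodes without a cell type.

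Mural cells were gated with 8 markers that exclude the members, namely Rgs5, Notch3, Gucy1a1, Gucy1b1, Cspg4, Kcnj8, Itga7 and Heyl. The gate took 9.57% and 9.55% of kept barcodes in the mutants (468 and 534 cells) and 3.97% and 4.24% in the controls (255 and 271 cells). It was then cut by level. Cells with at least 5 Myh11 UMIs per 10000 were called Myh11-high, and cells below that cut with at least 5 Rgs5 UMIs per 10000 were called Myh11-low. Rgs5 encodes a G protein signalling regulator of pericytes and SMCs. Gate-defining genes and Myh11 itself are therefore descriptions in these gates.

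Myh11-high cells took a like share of kept barcodes in both genotypes, while Myh11-low cells took a larger share in both mutants than in both controls. The Myh11-high cells numbered 179 and 192 in the mutants and 236 and 238 in the controls, 3.66% and 3.44% against 3.67% and 3.72% of kept barcodes. The Myh11-low cells numbered 186 and 224 in the mutants and 16 and 20 in the controls, 3.8% and 4.01% against 0.249% and 0.313%. Such shares also move with the numbers of other cells. Reticular stromal cells took 9.63% and 10.4% of kept barcodes in the mutants and 25.4% and 24.8% in the controls. Osteoblasts took 2.52% and 2.68% against 9.77% and 9.85%. A further 103 and 118 mutant barcodes and 3 and 13 control barcodes of the mural gate lay below both cuts. They were led by Mmp9, Sorcs1 and Mmp13 and were given no cell type name.

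**Figure D1:**
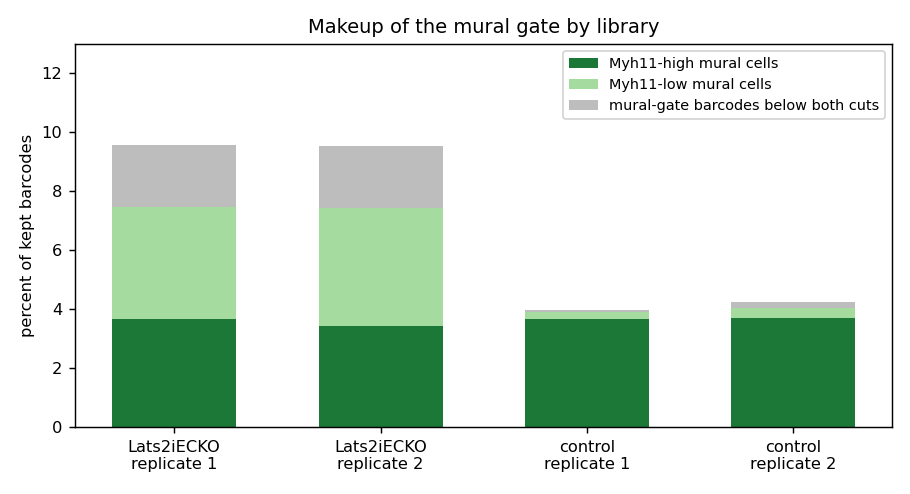
Makeup of the mural gate in each library, as the percent of kept barcodes (y axis) that were Myh11-high, Myh11-low or below both cuts. The Myh11-high segment lies between 3.44% and 3.72% in all 4 libraries, and the Myh11-low segment is 3.8% and 4.01% in Lats2iECKO and 0.249% and 0.313% in control.

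Myh11-high cells made up 38.2% (95% exact binomial interval 33.8 to 42.8) and 36.0% (31.9 to 40.2) of the mural gate in the mutants. In the controls they made up 92.5% (88.6 to 95.5) and 87.8% (83.3 to 91.5). Intervals cover counting error only. The means were 37.1% ± 1.62 and 90.2% ± 3.34 (SD, n = 2), and the groups did not overlap. The difference was −53.08 percentage points, with an exact two-sided permutation p = 0.33, the smallest that 2 against 2 libraries allow. With each cell thinned to 3000 UMIs the shares were 37.6% and 35.4% against 90.6% and 88.8%. Between 2 and 10 Myh11 UMIs per 10000 there were 43 and 44 mutant cells and 30 and 27 control cells, while no Myh11 UMI was found in 254 and 298 cells of the gate in the mutants and in 6 and 20 in the controls. With the lower cut of 2 on Myh11 and Rgs5, the Myh11-low cells of the controls numbered 7 and 11 in place of 16 and 20, and those of the mutants 184 and 220 in place of 186 and 224.

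Most of the members marked the Myh11-high cells, of which Myh11 had set the cut. Of their 10 leading genes by fold over the other gates, 7 were members (Myh11, Acta2, Tagln, Tpm2, Pln, Myl9 and Lmod1), and Dgkb, Ctnna3 and Dmd were the others. Barcodes without a single cell type and those of skeletal muscle and glia were left out of that comparison. None of the members led the Myh11-low cells, whose first genes were Tmem273, Rgs5, Sorcs1 and Cyp26b1. Per cell thinned to 3000 UMIs, the mean number of the 10 members detected in Myh11-high cells was 7.33 and 7.41 in the mutants and 7.15 and 7.24 in the controls, Myh11 included. It was 0.314 and 0.339 against 0.148 and 0.137 in ECs. Skeletal muscle markers (Pax7, Myf5, Myod1, Chodl, Ckm and Tnnt3) had no count in Myh11-high cells of any library, and in Myh11-low cells summed to 1.99, 0.529, 0 and 0 CPM.

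In the whole mural gate all 10 members passed the filter on low values and all 10 were lower in mutants. Of the 5115 genes tested there, 24.6% were higher and 24% lower. Acta2 stood at 4117 and 3857 CPM in the mutants and at 10130 and 10432 CPM in the controls, a log2FC of −1.37 (SE 0.0648, edgeR adjusted p = 7.38e-09). For Myh11 the levels were 1000.2 and 1032 CPM against 3587 and 3623 CPM, a log2FC of −1.83 (SE 0.0699, adjusted p = 1.14e-09). Both controls lay above both mutants for both genes. Of the 18 further contractile genes (such as Mylk, Tpm1 and Synpo2), 17 were tested in this gate and 16 were lower, and of 14 fibrosis genes 12 were tested and 11 were higher. The other members fell by 0.96 (Pln) to 1.66 (Myocd) on the log2 scale, apart from Des, with a log2FC of −0.29 (adjusted p = 0.0208). The Des call was lost with DESeq2 (−0.29, adjusted p = 0.116), without the gene filter (−0.21, adjusted p = 0.181) and with looser barcode filters (−0.24, adjusted p = 0.0572), and with mural cells taken by Myh11 or Rgs5 level alone its value was 0.032 (adjusted p = 0.806). It was also lost without Lats2iECKO replicate 1 (−0.32, adjusted p = 0.0598), Lats2iECKO replicate 2 (−0.26, adjusted p = 0.131) or control replicate 1 (−0.23, adjusted p = 0.131). The gate also includes the unnamed barcodes below both cuts, 103 and 118 in the mutants and 3 and 13 in the controls. In their mutant sums the reticular stromal markers reached 3746 and 3258 CPM and the mural markers 1253 and 1340 CPM. In their control sums the values were 1170 and 1942 CPM and 1268 and 1592 CPM. The part of these barcodes in the differences was not tested. In the sum of the whole gate a smaller share of Myh11-high cells and less RNA per cell cannot be told apart, so the cells were compared within the cut.

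Within Myh11-high cells most of the program was not called different between genotypes. All 10 members passed the filter. Of the 9 other than Myh11, 2 were higher in mutants (Pln and Des) and 7 were not called, while 10.4% of the 4411 genes tested were higher and 11.5% lower. The median log2FC of the 10 members, Myh11 included, was −0.01, as against 0.01 for all genes tested. Both genotypes were cut at the same Myh11 level. Over all gates and libraries, and not within these cells alone, each member had a Pearson r of 0.837 to 0.965 with the mean of the 10. That mean includes the member itself. The part of the cut in the values of the other members was not tested. Skeletal muscle markers were at 0 in these cells, and their median mitochondrial share was 8.93% and 9.81% in the mutants and 8.82% and 9.25% in the controls.

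Among the thin filament genes, Acta2 stood at 10891 and 10828 CPM in the mutants and 10846 and 11834 CPM in the controls. The groups overlapped, with a log2FC of −0.03 (SE 0.0713, edgeR adjusted p = 0.787). Tpm2 stood at 4904 and 5190 CPM against 4786 and 5356 CPM, with a log2FC of 0.02 (SE 0.0754, adjusted p = 0.864). The control values enclosed the mutant values. Lmod1, the filament nucleator, stood at 682 and 659 CPM against 797 and 776 CPM. Both mutants lay below both controls, with a log2FC of −0.20 (SE 0.0830, adjusted p = 0.0776), and it was called at a lower cut on Myh11 and Rgs5 (−0.28, adjusted p = 0.00933).

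The actin-binding proteins were close as well. Tagln stood at 7829 and 7707 CPM in the mutants and 6889 and 7813 CPM in the controls, with a log2FC of 0.11 (SE 0.0743, edgeR adjusted p = 0.311). Control replicate 1 was the low library, and without control replicate 2 Tagln was called higher in mutants (0.20, adjusted p = 0.00580). Cnn1 stood at 210 and 215 CPM against 174 and 232 CPM, with overlapping groups and a log2FC of 0.09 (SE 0.121, adjusted p = 0.623).

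Of the myosin subunits, Myh11 stood at 3032 and 3320 CPM in the mutants and at 3840 and 4123 CPM in the controls. Both mutants lay below both controls, which is given as a description, with no test, since Myh11 set the cut. Myl9 stood at 3253 and 3299 CPM against 3367 and 3698 CPM, with a log2FC of −0.08 (SE 0.0753, edgeR adjusted p = 0.486).

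Pln showed the largest difference of the members in these cells. It stood at 641 and 557 CPM in the mutants and at 418 and 419 CPM in the controls, a log2FC of 0.55 (SE 0.0906, edgeR adjusted p = 2.26e-05) and a ratio of the means of 1.43. Both mutants exceeded both controls, and the share of thinned cells with a Pln UMI was 58.0% and 57.1% against 53.8% and 53.7%. In chondrocytes, a cell type without a contractile role, that share was 0.209% to 0.371%. The Pln difference held without each library in turn (0.44 to 0.65). Without the gene filter, 0.59, it had an adjusted p = 0.0732.

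Des stood at 259 and 256 CPM in mutant Myh11-high cells and at 219 and 210 CPM in control Myh11-high cells, a log2FC of 0.29 (SE 0.104, edgeR adjusted p = 0.0408). Both mutants were higher, but the call was lost without any one of the 4 libraries (0.26 to 0.32, adjusted p of 0.0995 to 0.172). With at least 2000 UMIs and at most 10% mitochondrial UMIs required of each cell, Des was −0.15 (adjusted p = 0.542). Myocd, the regulator, stood at 242 and 227 CPM against 289 and 251 CPM, with a log2FC of −0.17 (SE 0.105, adjusted p = 0.252). Both mutants lay below both controls, but the difference was not called.

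**Figure D2:**
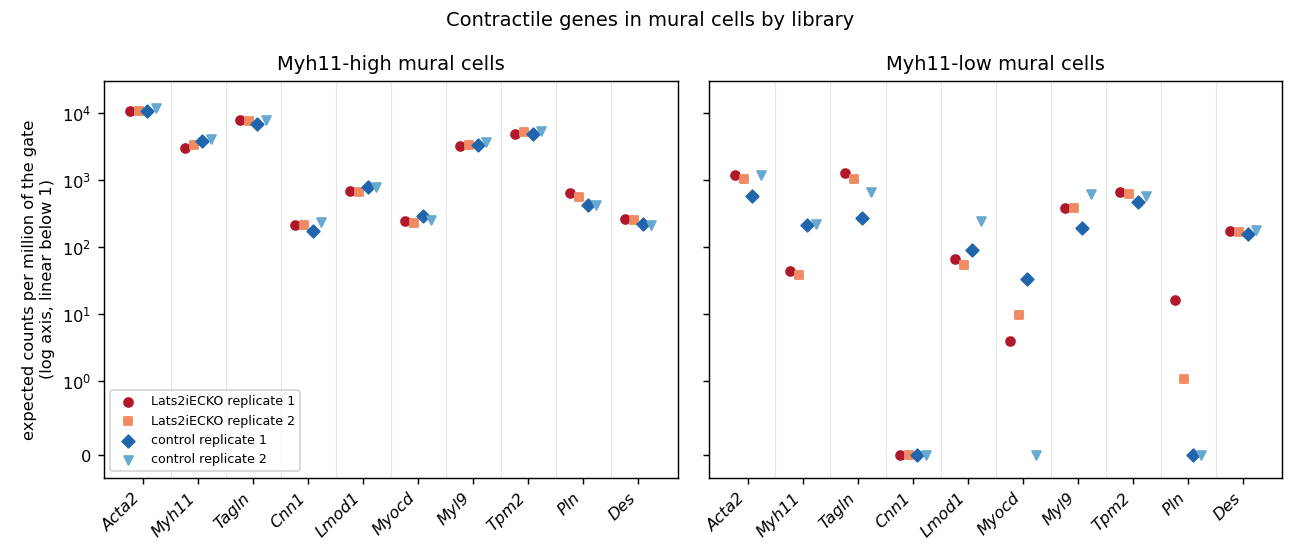
Level of the 10 members in Myh11-high (left) and Myh11-low (right) mural cells, 1 point per library, in CPM on an axis that is logarithmic above 1 and linear below. In Myh11-high cells the genotypes lie close together for every member, with Pln at 641 and 557 CPM in Lats2iECKO and 418 and 419 CPM in control as the widest gap, while Cnn1 is at 0 in all Myh11-low libraries.

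Beside the members, other smooth muscle genes of Myh11-high cells were mostly lower in mutants where they were called. Of 18 further contractile and cytoskeletal genes 17 were tested, 1 was higher and 6 were lower, with a median log2FC of −0.14. Ppp1r12b, a targeting subunit of myosin phosphatase, fell by 0.68 on the log2 scale (adjusted p = 2.33e-07), Synpo2 fell by 0.41, Mylk, the kinase of the myosin light chain, fell by 0.31, and Lpp fell by 0.28. The higher gene was Ppp1r14a (0.27, adjusted p = 0.0297), an inhibitor of myosin phosphatase, named after its values were seen.

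The calcium genes moved one way where called, opposite in sign to Pln. Of 10 genes 7 were tested and 4 were lower by edgeR, with a median log2FC of −0.43. Ryr2, the calcium release channel, fell by 0.63 (adjusted p = 4.73e-05), Cacna1c, the voltage-gated channel, fell by 0.46, Itpr1, the inositol trisphosphate receptor, fell by 0.43, and Kcnma1, a calcium-activated potassium channel, fell by 0.51.

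Of 16 regulators 12 were tested, 1 was higher and 3 were lower, among them the gate marker Notch3. Klf4, which is known to repress contractile genes, stood at 259 and 319 CPM in the mutants and at 83.5 and 91.4 CPM in the controls, a log2FC of 1.76 (SE 0.127, edgeR adjusted p = 3.66e-13). Both mutants exceeded both controls. The immediate early genes Junb (2.10), Egr1 (1.53) and Fos (1.17), chosen after their values were seen, were higher in the same cells. Their part in the Klf4 value was not tested. Tead1, a Hippo pathway transcription factor, fell by 0.52, and Prkg1, the cGMP-dependent kinase, fell by 0.28. Notch3, the mural Notch receptor, stood at 1033 and 1011 CPM against 1379 and 1295 CPM, a description in cells gated on it.

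SRF targets that are not restricted to muscle were tested in full in Myh11-high cells, with 3 higher and 1 lower of 10 and a median log2FC of 0.04. Cfl1 (0.53), Actg1 (0.43) and Tpm4 (0.40) were higher and Flna fell by 0.32. Of 14 fibrosis genes 7 were tested, 1 was higher and 3 were lower. Col1a1 fell by 1.38, Col1a2 fell by 1.30 and Col3a1 fell by 0.70, while Ccn2, a YAP and SRF target, was higher by 0.74 on the log2 scale. The 6 osteoblast markers summed to 146 and 155 CPM in mutant Myh11-high cells and to 484 and 448 CPM in control ones, and their part in the collagen values was not tested. Of 9 pericyte genes 7 were tested, 1 was higher (Ndufa4l2, 0.66) and 3 were lower, namely Abcc9, which fell by 0.88, Pdgfrb, which fell by 0.37, and Rgs5, a gene of the gate and the cut and so a description.

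Myh11-low cells carried a partial program. Acta2, Tagln, Tpm2, Myl9, Des and Lmod1 were present, Myocd and Pln were scarce, and Cnn1 was detected in 0 of 186, 0 of 224, 0 of 16 and 0 of 20 cells, which allows shares of cells with a UMI of up to 1.96%, 1.63%, 20.6% and 16.8% (exact binomial limits). Only Myh11 and Rgs5 were used in the cut, so the levels of the other genes across it are given as a description without a test. Relative to Myh11-low cells of the same library, Acta2 in Myh11-high cells was 9.11 and 10.3 times higher in the mutants and 18.7 and 10.1 times higher in the controls. For Tagln the ratio was 6.21 and 7.39 in the mutants and 25.8 and 11.7 in the controls. Des differed least, with ratios of 1.5 and 1.51 in the mutants and 1.40 and 1.16 in the controls.

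Between genotypes, 7 of the 10 members passed the filter in Myh11-low cells, Myh11 among them. Of the 6 others, 1 was higher in mutants (Tagln), 1 was lower (Lmod1) and 4 were not called. Over all 5630 genes tested there, 6.91% were higher and 7.99% lower. The control levels rest on 16 and 20 cells, and a Myh11 UMI was found in 81.2% and 60% of these against 17.2% and 18.8% of the mutant cells, so the control cells lay nearer to the cut. The part of this in the comparisons that follow was not tested. The median depth was 7403 and 7547.5 UMIs per cell in the mutants against 4646.5 and 4738 in the controls. Free RNA was estimated at no more than 1% of the level of Acta2 and Tagln in each library.

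Tagln stood at 1262 and 1043 CPM in mutant Myh11-low cells and at 268 and 666 CPM in control Myh11-low cells, from 1905 and 1972 counts against 24 and 66. Both mutants exceeded both controls, which themselves differed widely, with a log2FC of 1.42 (SE 0.232, edgeR adjusted p = 1.43e-04). Leaving out 1 library at a time gave 0.92 to 2.26. After thinning, 62.5% and 49.1% of mutant cells and 41.6% and 53.6% of control cells had a Tagln UMI, so the shares overlapped. In chondrocytes the share was 1.87% and 1.98% in the mutants and 0.909% and 1.45% in the controls.

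Acta2 stood at 1196 and 1049 CPM in mutant Myh11-low cells and at 580 and 1170 CPM in control ones. The groups overlapped, since control replicate 2 reached the mutant values, and the log2FC was 0.49 (SE 0.20, edgeR adjusted p = 0.107). Without control replicate 2 it was 1.11 (adjusted p = 2.71e-08). Tpm2 stood at 663 and 625 CPM against 468 and 575 CPM, with both mutants above both controls and a log2FC of 0.44 (SE 0.179, adjusted p = 0.103). Without control replicate 2 Tpm2 was also called (0.61, adjusted p = 0.0311). Both genes were called higher by edgeR without the gene filter, at 0.81 for Acta2 (adjusted p = 5.86e-06) and 0.76 for Tpm2 (adjusted p = 9.50e-04), and with mural cells by level alone, at 1.70 (adjusted p = 0.00294) and 1.52 (adjusted p = 9.29e-04). Without the filter every member tested in both fits moved up, among them Tagln from 1.42 to 1.74 and Lmod1 from −1.36 to −1.04. Myl9 moved from 0.04 to 0.36 and Des from 0.16 to 0.48. The upward move was thus not particular to Acta2 and Tpm2.

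Myl9 stood at 382 and 381 CPM in mutant Myh11-low cells and at 190 and 615 CPM in control ones, with the mutants between the controls and a log2FC of 0.04 (SE 0.266, edgeR adjusted p = 0.952). It was −0.56 (adjusted p = 0.0417) without control replicate 1 and 1.17 (adjusted p = 0.00224) without control replicate 2, so 1 control library decided its sign. With mural cells by level alone it was 1.09 (adjusted p = 0.0364). Des stood at 173 and 170 CPM against 156 and 182 CPM, with overlapping groups and a log2FC of 0.16 (SE 0.265, adjusted p = 0.75).

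Lmod1 stood at 66.2 and 53.9 CPM in mutant Myh11-low cells and at 89.2 and 242 CPM in control ones, a log2FC of −1.36 (SE 0.362, edgeR adjusted p = 0.0115). Both mutants lay below both controls, with control replicate 2 as the high library. Without it the log2FC was −0.43 (adjusted p = 0.687), and without Lats2iECKO replicate 2 it was −1.08 (adjusted p = 0.0642). The call was also lost with DESeq2 (−1.36, adjusted p = 0.105), doublets kept (−1.02, adjusted p = 0.121), stricter barcode filters (−1.20, adjusted p = 0.127) and mural cells by level alone (−0.07, adjusted p = 0.929). Myh11 stood at 43.7 and 37.6 CPM against 212 and 222 CPM in cells all held below the same cut, a description with no test, and it passed the filter only through the controls. Of thinned cells, 9.73% and 10.1% in the mutants and 58.2% and 51.4% in the controls had a Myh11 UMI, from 66 and 71 counts against 19 and 22.

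Myocd stood at 3.97 and 9.52 CPM in mutant Myh11-low cells and at 33.4 and 0 CPM in control ones, and Pln at 15.9 and 1.06 CPM against 0 and 0 CPM. Neither passed the filter. Rgs5 itself, which set the gate, stood at 4476 and 5414 CPM in the mutants and 13612 and 10941 CPM in the controls. The 8 mural markers summed to 6094 and 7054 CPM against 16890 and 14820 CPM, and the 6 reticular stromal markers to 3004 and 3765 CPM against 1683 and 3197 CPM. The part of these differences in the members' values was not tested.

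The genotype difference was also compared between Myh11-high and Myh11-low cells, with Myh11 left out as the gene of the cut. In 1 fit over both kinds of cells with the library as a block, 7.25% of the 5930 genes tested differed in either direction. The difference of the log2FC, Myh11-high minus Myh11-low, was −1.37 for Tagln (SE 0.233, edgeR adjusted p = 6.68e-04). Without Lats2iECKO replicate 1 the value for Tagln was −1.27 (adjusted p = 0.176), and without Lats2iECKO replicate 2 it was −1.54 (adjusted p = 0.0865). It was −0.94 without control replicate 1 and −2.06 without control replicate 2, and was called in both. For Lmod1 it was 1.12 (adjusted p = 0.0646), for Acta2 −0.58 (adjusted p = 0.0962) and for Tpm2 −0.45 (adjusted p = 0.170), none of which was called. Single control libraries decided the first pair. Lmod1 was 1.66 without control replicate 1 (adjusted p = 2.42e-04) and 0.19 without control replicate 2, and Acta2 was −0.21 and −1.09 (adjusted p = 1.52e-05) in the same order.

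**Figure D3:**
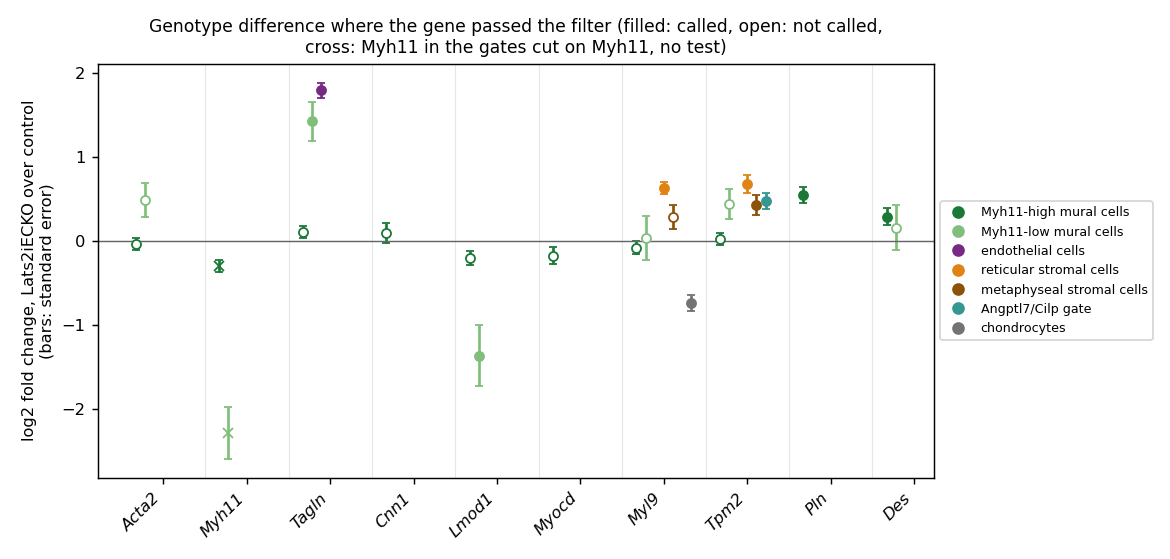
Log2FC of Lats2iECKO over control (y axis, with SE bars) for each member (x axis) that passed the filter, in 7 gates, with filled points for adjusted p of at most 0.05, open points otherwise and crosses for Myh11 in the gates cut on it, which are descriptions. In Myh11-high cells the members other than Myh11 lie between −0.20 (Lmod1) and 0.55 (Pln), and Tagln lies at 1.42 in Myh11-low cells and at 1.79 in ECs. Tagln in ECs and Tpm2 in reticular stromal cells passed the filter through the mutants alone, and Myl9 in chondrocytes through the controls alone. The fill of these points is not used as a call.

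The further contractile, calcium and regulator genes of Myh11-low cells were mostly lower in mutants where they were called. Of the 18 further contractile genes 15 were tested, 1 was higher and 7 were lower, with a median log2FC of −0.79 against 0.01 for all genes. Ppp1r12a, a myosin phosphatase subunit, fell by 1.26, Synpo2 fell by 1.75, Lpp fell by 0.90 and Pdlim3 fell by 2.26. The higher gene was Csrp1 (1.03), named after its values were seen. Of 10 calcium genes 4 were tested and 2 were lower, Atp2a2, the calcium pump that Pln restrains, which fell by 1.20, and Cacna1c, which fell by 0.83. Of 16 regulators 11 were tested and 6 were lower, among them the gate marker Notch3 (a description), Prkg1, which fell by 1.41, Jag1, a Notch ligand, which fell by 1.44, and Rock2, a kinase downstream of RhoA, which fell by 0.69.

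Of the 14 fibrosis genes, 12 were tested in Myh11-low cells, 7 were higher and 2 were lower, with a median log2FC of 1.16. Thbs1, a matricellular glycoprotein, stood at 379 and 300 CPM in the mutants and at 55.7 and 50.4 CPM in the controls, a log2FC of 2.82 (edgeR adjusted p = 5.48e-06). Ccn2 was higher by 1.29, Col1a1 by 1.23 and Fn1 (fibronectin) by 1.08. The SRF targets that are not restricted to muscle gave 3 higher (Tpm4, 0.97, Actg1, 0.71, and Actb, 0.47) and 1 lower (Filip1l, which fell by 1.84) of 10. Of the 9 pericyte genes 1 was higher and 4 were lower. The higher gene, Cspg4, and Rgs5 among the lower are gate markers and descriptions here. The others were Abcc9, which fell by 1.26, Higd1b, which fell by 1.23, and Vtn, which fell by 2.75.

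In the barcodes below both cuts, control libraries held 3 and 13 cells and no test was made. Tagln stood at 522 and 320 CPM in the mutants and at 0 and 20.5 CPM in the controls, and Acta2 at 347 and 279 CPM against 0 and 10.3 CPM. Tpm2 stood at 329 and 274 CPM against 195 and 134 CPM. The mutant levels of Tagln and Acta2 in these unnamed cells were lower than in Myh11-low cells of the same library.

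The counts of each member over all kept barcodes showed where the program was read. Myh11-high cells held 78.7% and 77.4% of the Acta2 counts in the mutants and 95% and 91.7% in the controls. For Tagln they held 64.9% and 63.9% in the mutants and 89.4% and 88.3% in the controls. For Myh11 the shares were 91.6% and 88.6% against 93.4% and 93.3%. In the mutants, Myh11-low cells held 11.3% and 11.3% of Acta2, 13.7% and 13.1% of Tagln and 32.6% and 37.0% of Des. In the controls they held 0.340% and 0.652% of Acta2, 0.232% and 0.541% of Tagln and 2.35% and 3.0% of Des. Des counts also lay in control reticular stromal cells, at 27.5% and 25.8%, and in mutant ones at 5.50% and 7.03%. These shares move with the numbers of cells as well as with the levels.

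**Figure D4:**
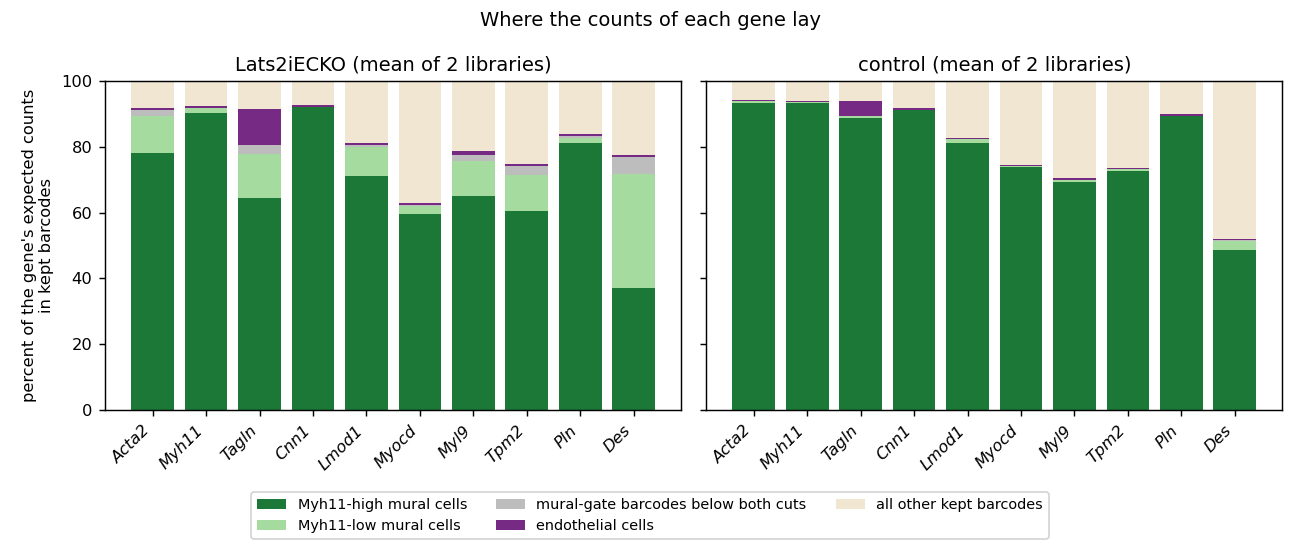
Percent of each member's counts over kept barcodes that lay in each gate, as the mean of the 2 libraries of each genotype. Myh11-high cells hold most counts of every member but Des in both genotypes, and in Lats2iECKO Myh11-low cells take a visible part of Acta2 and Tagln, and ECs of Tagln.

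In ECs the program was nearly absent apart from Tagln. Only Tagln of the 10 members passed the filter, and it did so through the mutants alone, with a UMI in 26% and 26.2% of their ECs against 10.4% and 9.61% of control ECs. By comparison, 30.5% of the 5739 genes tested were higher in mutants and 30.4% lower. Tagln stood at 320 and 310 CPM in the mutants and at 109 and 81.6 CPM in the controls, a log2FC of 1.79 (SE 0.0925) and a ratio of the means of 3.31. Since the filter admitted Tagln through the group where it was high, the p of that fit is not used. In the fit without the gene filter Tagln was also called higher by edgeR (1.79). Both mutants exceeded both controls, and the log2FC was 1.60 to 2.02 without each library in turn. Of thinned ECs, 23.0% and 23.1% in the mutants and 8.88% and 7.85% in the controls had a Tagln UMI. The median depth of ECs was 6508 and 6412.5 UMIs in the mutants and 5433 and 5057 UMIs in the controls, and that of chondrocytes 14360 to 15176 UMIs.

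The 8 mural gate markers summed to 112 and 157 CPM in mutant ECs and to 132 and 150 CPM in control ECs, and Cnn1 was below 1 CPM in all 4 libraries. With barcodes that held a UMI of Myh11, Cnn1, Lmod1 or Rgs5 left out, the log2FC of Tagln was 1.79, with called doublets kept it was 1.20, and free RNA was estimated at 0.903% to 3.24% of its level. Without the gene filter Acta2 (1.5), Myh11 (1.35), Myl9 (1.03) and Tpm2 (0.90) were called higher as well, at levels of at most 31.3 CPM. The share of all genes called in that fit was not counted, so these calls are no result about the members as a set. Myh11 stood at 3.06 and 8.43 CPM in mutant ECs and 3.51 and 1.32 CPM in control ECs, so its groups overlapped. Acta2 stood at 20.6 and 31.3 CPM in mutant ECs and 11.8 and 7.55 CPM in control ECs, of which free RNA was estimated at 20% and 13.5% against 35.5% and 57.1%.

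Of the EC gates Tagln was highest in arteriole-like ECs, gated by Vwf, Fmo2 and Aplnr. It stood there at 1213 and 1082 CPM in the mutants and at 828 and 708 CPM in the controls, a log2FC of 0.59 (SE 0.0939, edgeR adjusted p = 1.22e-04), where 7.48% of the 5388 genes tested were higher and 7.8% lower. Both mutants exceeded both controls. These cells made up 26.6% and 27.7% of ECs in the mutants (133 and 172 cells) and 12.9% and 12.6% in the controls (105 and 100 cells). Sinusoidal ECs, in which Tagln was at 9.78 and 35.0 CPM against 6.03 and 6.13 CPM, made up 13.8% and 12.7% against 33.9% and 33.1%. In metaphyseal capillary ECs, gated by Aplnr, Ramp3, Gpihbp1 and Nox4, Tagln was at 74.1 and 36.9 CPM in the mutants and 21.9 and 3.49 CPM in the controls, from 116 and 71 counts against 38 and 5. The groups did not overlap and the ratio of the means was 4.37, a description with no test, and these cells made up 26.6% and 27.5% of ECs against 24.4% and 25.0%. The difference over all ECs thus went with the makeup of the gate and with the levels inside its kinds of EC, and no test divided it between them. The paper reports higher Vwf in mutant metaphyseal ECs and lists Nox4 as specific to the mutants. Both are markers of EC kinds here, so the shares and levels of these kinds are read in gates that can move with genotype. The part of the markers in these values was not tested.

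Arterial ECs, gated by Gja4, Gja5, Sema3g, Bmx, Sox17 and Efnb2, had little Tagln and the highest Acta2 of the EC gates in each library. Acta2 stood there at 58.4 and 65.5 CPM in the mutants and at 38.9 and 13.6 CPM in the controls. Tagln stood at 27.3 and 42.4 CPM against 32.5 and 3.01 CPM, with overlapping groups. No member passed the filter in arterial ECs, where 14.3% of the 5247 genes tested were higher in mutants and 14.6% lower. Without the gene filter edgeR called Acta2 (1.31), Myh11 (1.66) and Tagln (1.05) higher there, and the share of all genes called in that fit was not counted. The groups overlapped for Myh11, at 7.59 and 22.5 CPM against 10.1 and 0 CPM, and for Tagln. The p of that fit thus does not measure the spread between libraries and is not used. In ECs other than arterial Tagln stood at 439 and 415 CPM against 133 and 108 CPM, a log2FC of 1.89 (SE 0.0865). It passed the filter there through the mutants alone, and without the gene filter it was called higher by edgeR (1.88). In those ECs 29.1% of the genes tested were higher and 29.3% lower. The fit of the difference between arterial and other ECs gave −0.79 (SE 0.40) for Tagln, with 13.4% of genes differing in either direction. Tagln entered this fit through the mutants alone as well, so its p is not used. The difference was 1.58 without control replicate 1 and −1.54 without control replicate 2, so its sign turned on 1 control library. With called doublets kept it was −1.84.

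**Figure D5:**
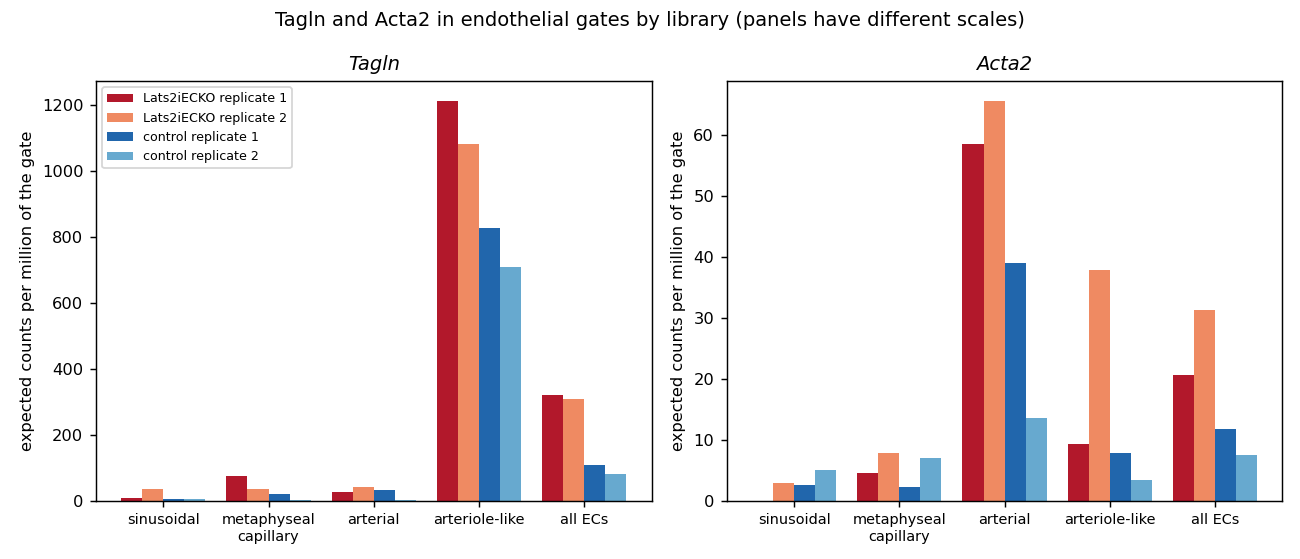
Tagln and Acta2 in EC gates, in CPM (y axis, with a separate scale for each panel), with 1 bar per library. Tagln is highest in arteriole-like ECs, at 1213 and 1082 CPM in Lats2iECKO and 828 and 708 CPM in control, and Acta2 is highest in arterial ECs of Lats2iECKO, at 58.4 and 65.5 CPM.

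Other genes of ECs gave mixed counts, and those of the regulators lay near the share of all 5739 genes tested (30.5% higher, 30.4% lower). Of the 18 further contractile genes 11 were tested, 3 were higher and 5 were lower, with Tpm1 (1.28) and Csrp1 (1.06) higher and Lpp and Mylk lower by −0.73 and −0.72 on the log2 scale. Of the 10 SRF targets that are not restricted to muscle 8 were higher by edgeR, with a median log2FC of 0.41 against 0.01 for all genes tested. Actg1, cytoplasmic actin, was higher by 0.84, Filip1l by 0.70, Vcl (vinculin) by 0.66 and Actb by 0.44. Ccn2 stood at 325 and 308 CPM in mutant ECs and at 74.4 and 73.8 CPM in control ECs, a log2FC of 2.16 (adjusted p = 1.24e-13). Of the 14 fibrosis genes 5 were tested, and besides Ccn2 the genes Fn1 (2.20) and Thbs1 (3.15) were higher, while Col1a1 fell by 2.29 and Col1a2 fell by 2.23. The 6 osteoblast markers summed to 153 and 115 CPM in mutant ECs and to 452 and 423 CPM in control ECs, and their part in the collagen values was not tested. Of 16 regulators 10 were tested, 3 were higher and 3 were lower, with Klf4 (0.73) and Jag1 (0.36) among the higher and Mrtfa, a coactivator of SRF, and Prkg1 lower by −0.51 and −0.36. Of 10 calcium genes 2 were tested and Itpr1 was higher by 0.35, and of 9 pericyte genes 3 were tested, with Mcam higher by 0.22, Abcc9 lower by −1.51 and Kcnj8, a mural gate marker, lower by −1.03. None of the 8 skeletal muscle genes passed the filter in ECs or mural cells.

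Bone marrow stromal cells held low levels of the general members Myl9 and Tpm2. In reticular stromal cells, gated by genes such as Adipoq, Lepr and Cxcl12, these 2 of the 10 members passed the filter, Tpm2 through the mutants alone. There 21.6% of the 4983 genes tested were higher and 20% lower. Myl9 was higher in mutants. It stood at 110 and 109 CPM against 75.0 and 71.7 CPM, a log2FC of 0.63 (SE 0.0694, edgeR adjusted p = 6.91e-06). Tpm2 stood at 67 and 53.0 CPM against 37.3 and 39.7 CPM, a log2FC of 0.68 (SE 0.108), with a UMI in 24.2% and 20.7% of cells against 17% and 18.8%. In the fit without the gene filter, which admits genes through neither genotype, Tpm2 was 0.60 (edgeR adjusted p = 0.0156). Both mutants exceeded both controls for both genes. Tagln did not pass the filter. Its means were 23.8 CPM (SD 7.71) in the mutants and 5.83 CPM (SD 0.473) in the controls, and the groups did not overlap. Without the gene filter edgeR called Tagln higher (2.02, adjusted p = 0.00158), and also Acta2 (1.29, adjusted p = 0.00822). Free RNA was estimated at 4.18% to 5.62% of Myl9 and 13.9% to 15.4% of Tpm2, but at 84.7% to 162% of Acta2, so Acta2 was not readable above background there. The part of free RNA in the low Tagln levels was not tested.

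In metaphyseal stromal cells, gated by genes such as Postn, Wif1 and Hs3st5, Tpm2 and Myl9 passed the filter and Tpm2 was higher in mutants, where 12.8% of genes were higher and 10.9% lower. Tpm2 stood at 180 and 166 CPM against 119 and 151 CPM, a log2FC of 0.43 (SE 0.118, edgeR adjusted p = 0.0195), which was lost without control replicate 1 (0.27, adjusted p = 0.243), with DESeq2 (0.44, adjusted p = 0.0875), without the gene filter (0.36, adjusted p = 0.405) and with doublets kept (0.33, adjusted p = 0.159). The 6 skeletal muscle markers summed to 56.7 and 81.5 CPM in these mutant cells and to 2.5 and 9.96 CPM in the control ones. The gate's own 6 markers summed to 3585 and 3688 CPM against 6629 and 6271 CPM. The part of these differences in the Tpm2 value was not tested. Myl9 stood at 66.3 and 87.7 CPM against 65.4 and 70.0 CPM, with a log2FC of 0.28 (adjusted p = 0.164), and without Lats2iECKO replicate 1 it was called (0.46, adjusted p = 0.00949). Acta2 stood at 14.4 and 75.3 CPM against 11.8 and 10.4 CPM, and Tagln at 10.4 and 74.1 CPM against 4.77 and 5.44 CPM. Only Lats2iECKO replicate 2 was high for both genes, and neither passed the filter.

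The remaining gates gave 1 member each or none. The gate on the fibroblast markers Dpt, Clec3b, Pi16, Igfbp6, Mfap5 and Sod3 was led by Angptl7, Msmp, Cilp, Igfbp6 and Prg4, the last of which encodes the lubricin of joint surfaces. Its chondrocyte markers summed to 1432 and 1419 CPM in the mutants and 941 and 1303 CPM in the controls, so it was given no cell type name and is called the Angptl7/Cilp gate. Tpm2 stood there at 127 and 117 CPM against 96.6 and 86.8 CPM, a log2FC of 0.48 (SE 0.0955, edgeR adjusted p = 0.0238), where 3% of genes were higher and 2.58% lower. The call was lost without Lats2iECKO replicate 1 (0.41, adjusted p = 0.0642) or control replicate 2 (0.41, adjusted p = 0.0679), with DESeq2 (0.48, adjusted p = 0.104), with doublets kept (0.21, adjusted p = 0.191) and with free RNA subtracted (0.28, adjusted p = 0.281). Free RNA was estimated at 11.3% and 19.8% of the gate's UMIs in the mutants and 4.89% and 6.17% in the controls. Acta2 was at 42.4 and 46.2 CPM in mutants and 9.23 and 17.0 CPM in controls and did not pass the filter. Tagln did not pass it either, with means of 33.2 CPM (SD 11.5) in mutants and 6.95 CPM (SD 1.43) in controls. Without the gene filter edgeR called both higher, Acta2 at 1.79 and Tagln at 2.29. Free RNA, the larger in the mutants of this gate, was not subtracted in that fit, and its part in these calls was not tested. In chondrocytes Myl9 stood at 11.7 and 13.1 CPM against 20.9 and 23.2 CPM, a log2FC of −0.74 (SE 0.0945), where 28.4% of genes were higher and 27.8% lower, and both mutants lay below both controls. It passed the filter through the controls alone, with a UMI in 18.9% and 22.1% of control and 11.3% and 13% of mutant cells. Without the gene filter it was −0.80 (edgeR adjusted p = 0.00677). In osteoblasts no member passed the filter, where 7.72% of genes were higher and 3.61% lower.

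The genes whose log2 levels over 43 points of gate and library were most like the mean of the 10 members were Slc38a11 (Pearson r = 0.951), Gm13861 (0.949), Kcnk3 (0.944), Rbm24 (0.943), Lrrtm3 (0.935), Dgkb (0.934), Map3k7cl (0.933), Cap2 (0.933), Casq2 (0.933) and Ctnna3 (0.931). Members themselves correlated with that mean, which includes them, at 0.837 (Cnn1) to 0.965 (Acta2). The points share libraries and depth.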

How the data were processed

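The authors trimmed reads with cutadapt 3.5 and counted them over exons and introns with STARsolo 2.7.10a (versions per the submitters' processing notes) on GRCm39 with GENCODE M26, extended by CreERT2 and Rosa26-mTmG. The authors deposited 1 matrix per library of each expected count of UMIs per gene and barcode, in which STARsolo divided multi-mapped UMIs between genes by expectation maximisation. At least 99.1% of the UMIs of each member lay in whole entries, and sums were rounded before tests.

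Barcodes with at least 1000 UMIs, 800 genes, complexity of 0.8, at most 15% mitochondrial and 5% hemoglobin UMIs were kept, after removing the Scrublet (through scanpy 1.11.5) doublets expected at 0.8% per 1000 barcodes (229 to 385 per library). Cells were gated by mean z-scores of marker lists (best of at least 0.5, margin of at least 0.25), with no member among the markers. Each EC was then given the EC kind with the highest score, with no minimum and no margin. Counts were summed per library and gate and tested with edgeR 4.0.16 (quasi-likelihood test, TMM, filterByExpr and a UMI in at least 20% of cells of either genotype, R 4.3.3). Calls were at a Benjamini-Hochberg adjusted p of at most 0.05 over all genes tested, and log2FC is mutant over control. Levels are CPM of the summed counts and are not corrected for gene length. Free RNA was estimated from barcodes with at most 100 UMIs. Scripts were tested on simulated data.

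All 10 members are given in Myh11-high and Myh11-low cells. In the other gates the members that passed the filter are given, singly or as a range, with only some of those that did not pass. Up to 4 genes of each further list with the lowest p are named, apart from those said to be named after their values were seen, and lists are described in mural cells and ECs. The members and lists were chosen with earlier results of these data known. Positions come from GENCODE M39. Alternatives were DESeq2 1.42.0, its size factors, no gene filter, a replicate block, doublets kept, looser and stricter barcode filters, free RNA subtracted, other cuts on Myh11 and Rgs5, a mural gate by those 2 genes alone, and each library left out.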

Additional observations from a re-analysis of the deposited data

Results flagged for a closer look

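The genotype effect differed between Myh11-high and Myh11-low mural cells for 1 of the 9 members other than Myh11, which set the cut between these cells, by a test of the difference itself (edgeR quasi-likelihood test with the library as a block, adjusted over 5930 genes, of which 7.25% differed in either direction). The 9 include Cnn1, which had no count in Myh11-low cells, and Pln and Myocd, which were scarce there (SE 5.26 and 1.06). The fit could hardly have called these genes. For Tagln the difference of the log2FC, Myh11-high minus Myh11-low, was −1.37 (SE 0.233, edgeR adjusted p = 6.68e-04). Tagln stood at 1262 and 1043 CPM in mutant and 268 and 666 CPM in control Myh11-low cells. The difference was not called without either mutant library (adjusted p = 0.176 and 0.0865), and it was −0.94 and −2.06 without control replicates 1 and 2.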

How the results depend on the processing

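Over single members and EC kinds under all alternatives, 599 values kept their side of the threshold with no change of direction where called, 33 lost a call, 19 gained one, 3 counts moved (no gene filter, 3 higher in arterial, 4 in other and 3 in arteriole-like ECs) and 3 values reversed. The reversals were Des in all mural cells (0.032 with mural cells by Myh11 or Rgs5 level alone), Des in Myh11-high cells (−0.15 under stricter barcode filters) and Myl9 in Myh11-low cells (−0.56 without control replicate 1, 1.17 without control replicate 2). With the replicate numbers as a block no count of calls moved (Tagln in ECs 1.80); the numbers were not taken to pair samples, since same-numbered libraries deviated with correlations of −0.0623 to 0.0353. Of members higher in Myh11-high cells (2), DESeq2 gave 1, no gene filter 0, stricter barcode filters 1 and level alone 1; of those lower (1), no filter gave 0 and the lower cut 2. In Myh11-low cells, the 2 lower became 1 with DESeq2, doublets kept, stricter filters and level alone, and the 1 higher became 3 with no filter and 5 by level alone. No filter, which tests sparse genes, gave 5 higher in ECs, 4 in reticular cells, 1 in chondrocytes, 5 in the Angptl7/Cilp gate and 4 different between the mural kinds. The share of all genes called without the filter was not counted, so these counts are no result about the members. The edgeR adjusted p of Myh11 in all mural cells was 4.62e-118 without the filter and 1.14e-09 with it. The p-values without the filter are not read as a measure of the spread between libraries. In metaphyseal stromal cells (1 higher) DESeq2, no filter and doublets kept gave 0; in the Angptl7/Cilp gate (1 higher) DESeq2, doublets kept and free RNA subtracted gave 0. Doublets kept gave 1 differing member between arterial and other ECs, Tagln, whose p is not used in that fit. Counts in and between the Myh11-high and Myh11-low cells include Myh11, the gene of the cut, as a description. The Myh11-high share differed by −57.8 points under stricter filters, −41.7 by level alone and −45.4 without barcodes below both cuts. This last alternative, the one that added those barcodes to Myh11-low cells, the one on EC barcodes with mural UMIs and the block on the share were chosen after seeing the data. Leaving out 1 library gave 9 to 10 lower in all mural cells, 1 to 2 higher and 0 to 1 lower in Myh11-high, 1 to 4 higher and 1 to 3 lower in Myh11-low, 0 to 2 higher in metaphyseal stromal cells, 0 to 1 in the Angptl7/Cilp gate, 1 to 4 differing between mural kinds and 0 to 1 between EC kinds. The lower cut left too few Myh11-low control cells for a value. Causes were not tested. Depth limits the Myh11-low controls, with 16 and 20 cells.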

Other observations

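Some immediate early genes are given here for Myh11-high cells, where 10.4% of the 4411 genes tested were higher in mutants. They were chosen after their values were seen, from no fixed list, and are no count of their class. The log2FC was 2.10 for Junb, 1.88 for Klf2, 1.80 for Atf3, 1.53 for Egr1, 1.17 for Fos and 1.03 for Jun (edgeR adjusted p of 7.64e-12 for Jun, the largest of the 6). In ECs, where 30.5% of the genes tested were higher, the same genes gave 0.92 for Junb, 0.51 for Klf2, 1.55 for Atf3, 0.86 for Egr1, 1.13 for Fos and 0.41 for Jun, all called. Hspa1a, a heat shock gene, was at 0.09 in Myh11-high cells (adjusted p = 0.512) and fell by 0.45 in ECs.

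Leukocytes (57 and 68 mutant and 152 and 146 control cells) held Acta2 at 99.4 CPM in Lats2iECKO replicate 1 and at 7.13, 4.86 and 4.10 CPM in the other libraries. Myocd in chondrocytes stood at 2.51 and 3.34 CPM in the mutants and 0.188 and 0.241 CPM in the controls, below the filter.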
